A study of Mus musculus with 25 samples.

Results

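The 10 genes described here encode receptors (Notch1, Notch2, Notch3, Notch4), ligands (Jag1, Jag2, Dll1) and transcriptional targets (Hes1, Hey1, Heyl) of the Notch pathway. They were taken by symbol from the 55385 genes counted in each library, and all 10 were found. Notch receptors sit in the cell membrane and are bound by Jagged or Delta-like ligands on a neighbouring cell. The bound receptor is cut by an ADAM protease and by γ-secretase, and the released intracellular part joins the DNA-binding protein Rbpj and a Mastermind coactivator to switch on targets such as the Hes and Hey repressors. In the melanocyte lineage the pathway is known for maintaining melanoblasts and melanocyte stem cells.

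RNA-seq was performed on 25 libraries from 5 murine melanoma cell lines, with 5 biological replicates of untreated cultures per line at a confluency of 50%. WT31, which came from Tyr::Nras Q61K/°; INK4a-/- mice, colonizes the liver with high efficiency. B16F10 luc2, a B16 line with a luciferase label, and RET, from mice with a human RET transgene under the metallothionein promoter, have intermediate efficiency. These 3 lines are called HIM-melanoma. D4M and HCmel12, the latter from a primary tumour of HGF-CDK4(R24C) mice, have low efficiency and are called LM-melanoma. WT31, B16F10 luc2 and RET shared a medium, whereas HCmel12 received added supplements and D4M another basal medium with less serum, so that line and medium cannot be told apart in the pairs with D4M or HCmel12. Each line is a single established line with its own driver, and the replicates of a line measure the spread of that line only.

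Libraries held between 24199083 and 25843286 counts, and a count of 3 corresponded to 0.111 to 0.138 CPM. Levels are CPM (counts divided by the TMM-scaled library size in units of 1000000), with the SD over 5 libraries, unless TPM is named. Of the 10 members, 9 passed the filter on low counts and Heyl did not. The melanocyte label was checked against 8 markers. Their summed level lay between 12290 and 31360 CPM in every library of WT31, B16F10 luc2, RET and HCmel12, but between 6.59 and 60.6 CPM in D4M, where Sox10, a transcription factor that defines the lineage, stood at 0.552 ± 0.872 CPM (0.172 ± 0.233 CPM without D4M replicate 1, which held 45 counts). The summed level of the other 4 D4M libraries was at most 12.2 CPM. In D4M the 6 fibroblast markers summed to 450.8 to 674.2 CPM, against at most 88.6 CPM in any other library (42.4 CPM without RET replicate 3). This sum rested on Col1a1, Col1a2 and Pdgfra, with means of 143.7, 354.3 and 59.5 CPM. Dcn, Lum and Thy1 stood at 0.335, 0.0 and 0.547 CPM in D4M, so that not all of the list was high there. The 7 endothelial markers summed to 25.6 to 39.1 CPM in HCmel12, where Kdr stood at 30.96 ± 5.71 CPM and Cdh5 and Emcn held no count in any library, and to at most 2.32 CPM in any other line. The part of Kdr and the other markers in the values of HCmel12 was not tested. The 6 immune and the 4 keratinocyte markers summed to under 1 CPM in every library. Every value of D4M below goes along with this difference in markers, whose part in it was not tested. Tyr counts in D4M replicate 1 and HCmel12 replicate 4 (17.5 and 744.4) lay above those in the other libraries of the same line, and the tests of the members were repeated without both. Whether libraries were mixed was not tested.

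The widest ranges between lines were those of Dll1, Notch4 and Jag1, all of them highest in D4M. The sequence around the annotated start of these 3 genes is shown because transcription begins there. RefSeq (GRCm38.p6) gave 8 start sites for 7 of the members (not for Hes1, Hey1 and Heyl), as windows of 300 bases from 250 bases before to 50 bases after the start. Notch4 lay on the plus strand at chr17:34564045-34564344, and Jag1 on the minus strand at chr2:137116471-137116770. The 2 starts of Dll1 lay on the minus strand at chr17:15375774-15376073 and chr17:15376883-15377182. Each window is written 5′ to 3′ on the strand of its gene, and capitals mark a match to the AP-1 motif.
Notch4: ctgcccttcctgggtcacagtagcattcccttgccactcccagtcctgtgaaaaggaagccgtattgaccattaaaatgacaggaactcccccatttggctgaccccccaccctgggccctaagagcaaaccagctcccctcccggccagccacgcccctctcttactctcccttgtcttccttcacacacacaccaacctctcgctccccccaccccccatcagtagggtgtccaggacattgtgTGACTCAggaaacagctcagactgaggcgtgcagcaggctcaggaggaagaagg
Jag1: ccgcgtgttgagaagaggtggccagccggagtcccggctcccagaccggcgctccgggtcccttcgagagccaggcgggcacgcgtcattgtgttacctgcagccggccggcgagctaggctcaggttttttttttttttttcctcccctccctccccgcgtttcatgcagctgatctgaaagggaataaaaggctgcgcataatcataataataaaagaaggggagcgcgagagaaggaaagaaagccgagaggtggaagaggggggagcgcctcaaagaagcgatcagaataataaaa
Dll1, start 1: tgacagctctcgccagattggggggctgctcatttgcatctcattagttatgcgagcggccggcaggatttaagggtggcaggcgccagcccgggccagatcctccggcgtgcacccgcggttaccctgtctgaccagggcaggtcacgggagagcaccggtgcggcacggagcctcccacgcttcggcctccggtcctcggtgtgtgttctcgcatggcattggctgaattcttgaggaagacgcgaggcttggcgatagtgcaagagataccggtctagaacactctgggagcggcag
Dll1, start 2: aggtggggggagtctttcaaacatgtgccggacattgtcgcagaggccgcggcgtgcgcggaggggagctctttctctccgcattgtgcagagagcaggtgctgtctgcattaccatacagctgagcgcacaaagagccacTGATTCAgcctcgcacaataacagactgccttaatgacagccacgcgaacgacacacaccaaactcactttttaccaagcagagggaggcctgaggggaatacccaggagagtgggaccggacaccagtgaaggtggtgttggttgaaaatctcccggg

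The 8 windows were searched on both strands for the Rbpj motif TGGGAA, the AP-1 motif TGANTCA and the E-box CACGTG. None of them held TGGGAA, which occurred in 25.6% of 32851 RefSeq windows of the same length, and none held CACGTG, which occurred in 7.15%. TGANTCA occurred in 7.81% of all windows and matched in 2 of the members' windows. In Notch4 the match TGACTCA began 4 bases before the start site and ran across it. In the window of Dll1 start 2 the match TGATTCA began 109 bases before the start. The windows of Jag1 and of Dll1 start 1 held no match to these letters.

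**Figure D1:**
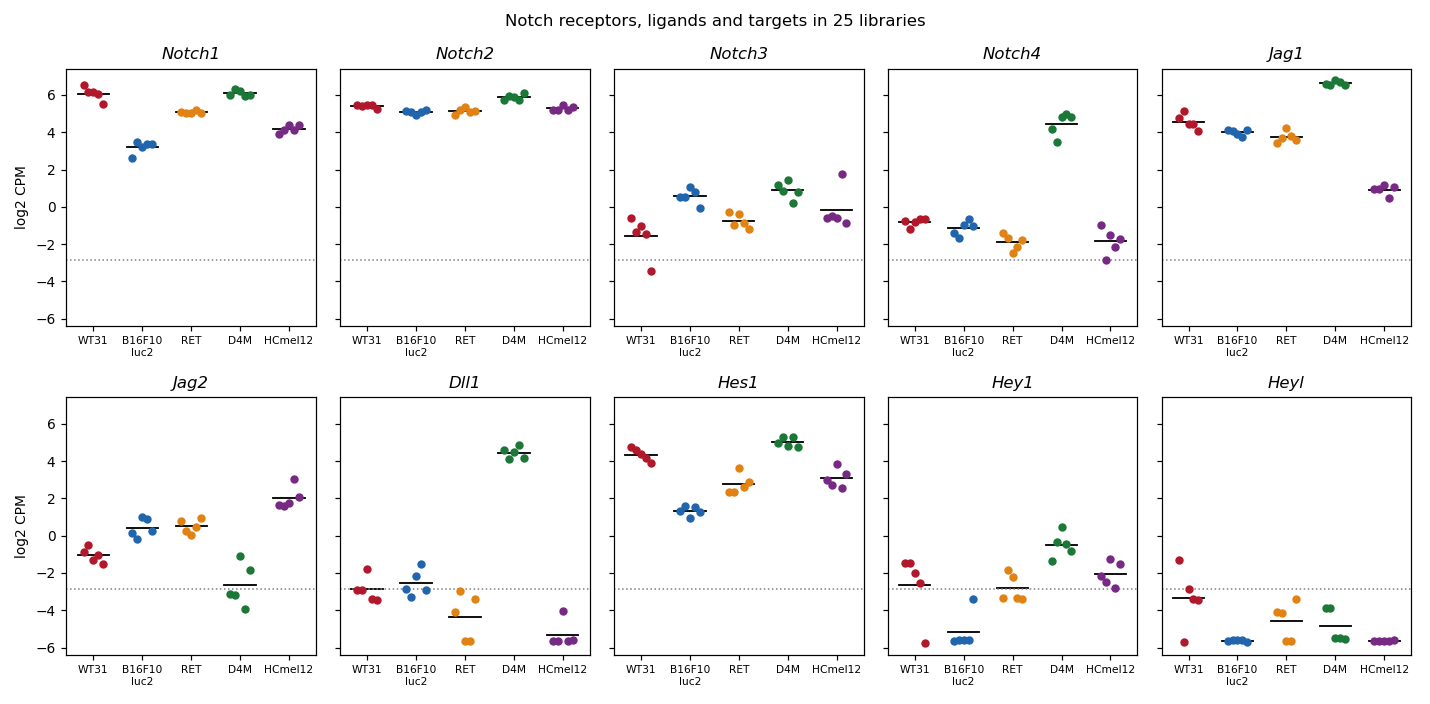
Level of each member in all 25 libraries. Points are log2 CPM of single libraries by line, horizontal bars are line means, and the dotted line is the level of 3 counts. Notch4 and Dll1 stood far above the dotted line in D4M, Jag2 was highest in HCmel12, and the line means of Notch2 lay close together.

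Among the receptors, Notch1 differed between lines over a wider range than Notch2. Notch1, a receptor with a wide role in cell fate decisions, reached 69.0 ± 8.08 CPM in D4M and 68.9 ± 16.3 CPM in WT31. It stood at 33.6 ± 1.67 CPM in RET, 18.3 ± 2.58 CPM in HCmel12 and 9.37 ± 1.88 CPM in B16F10 luc2. Each step below WT31 passed the test. The log2 difference was 1.00 ± 0.13 (SE) between WT31 and RET (limma, adjusted p = 1.48e-07), 0.88 ± 0.15 between RET and HCmel12 (adjusted p = 1.5e-05) and 0.98 ± 0.19 between HCmel12 and B16F10 luc2 (adjusted p = 7.25e-05). D4M and WT31 did not differ beyond their spread (0.03 ± 0.12, adjusted p = 0.825), and the sign of this difference turned when the counts were scaled by library size or replaced by TPM. As in all bulk libraries, fewer cells with a transcript and less of it per cell cannot be told apart.

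In single libraries, Notch1 lay at 91.1, 71.5, 70.9, 65.3 and 45.5 CPM in WT31 and between 62.8 and 80.9 CPM in D4M. RET libraries lay between 32.3 and 36.3 CPM, HCmel12 libraries between 15.0 and 21.3 CPM and B16F10 luc2 libraries between 6.19 and 11.0 CPM. The ranges of these 3 lines overlapped neither with each other nor with those of WT31 and D4M. The range of WT31 enclosed that of D4M. The gene lies on chromosome 2 (26457903 to 26516663, minus strand), and 9.40% of the 31-base stretches of its transcripts also occur in transcripts of other genes. Of these, 0610009E02Rik on the opposite strand reached at most 2.68 CPM and Gm13568 at most 0.201 CPM in any library.

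Notch2, the receptor with the narrowest range, was highest in D4M at 59.6 ± 6.78 CPM. It followed at 42.8 ± 2.75 CPM in WT31, 39.1 ± 3.37 CPM in HCmel12, 35.6 ± 3.67 CPM in RET and 34.2 ± 2.32 CPM in B16F10 luc2. D4M exceeded WT31 by 0.47 ± 0.08 on the log2 scale (limma, adjusted p = 4.64e-06), and its libraries (53.2, 60.6, 59.8, 54.0 and 70.1 CPM) lay above all 20 others. No neighbours below D4M differed in the test, with adjusted p between 0.139 and 0.638 for the 3 steps. In TPM, WT31 exceeded HCmel12 by 0.26 (plus 1, adjusted p = 0.00794) and 0.30 (plus 0.1, adjusted p = 0.00916). WT31 was higher than B16F10 luc2 (0.32 ± 0.08, adjusted p = 0.000911) and RET (0.27 ± 0.08, adjusted p = 0.00391). The call of a lower level in B16F10 luc2 than in HCmel12 (-0.19 ± 0.08, adjusted p = 0.0439) was lost when any of 5 libraries was left out (B16F10 luc2 replicates 2, 3 and 4, HCmel12 replicates 3 and 5), with values down to -0.15. Notch2 lies on chromosome 3 (98013527 to 98150361, plus strand).

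Notch3, a receptor best known from vascular smooth muscle, was low in all lines. Its mean was 1.89 ± 0.584 CPM in D4M, 1.503 ± 0.418 CPM in B16F10 luc2, 1.16 ± 1.203 CPM in HCmel12, 0.594 ± 0.165 CPM in RET and 0.382 ± 0.208 CPM in WT31. No neighbours in this order passed the test, but with DESeq2 RET was lower than HCmel12 (-0.997, adjusted p = 0.0422). Notch3 was lower in WT31 than in D4M (-2.45 ± 0.46, limma, adjusted p = 2.75e-05) and than in B16F10 luc2 (-2.13 ± 0.46, adjusted p = 0.000197). In HCmel12, replicate 4 reached 3.31 CPM (82 counts) and the other libraries lay between 0.529 and 0.678 CPM, with a mean of 0.624 CPM. Without this library, the difference of WT31 from HCmel12 moved from -1.41 (adjusted p = 0.0125) to -0.94 (adjusted p = 0.0518), and B16F10 luc2 came to exceed HCmel12 (from 0.72, adjusted p = 0.108, to 1.19, adjusted p = 0.00437). The call against WT31 was also lost without WT31 replicate 5 (-0.94, adjusted p = 0.0648), and the call of a higher level in D4M than in HCmel12 (1.04, adjusted p = 0.0181) without D4M replicate 3 (0.91, adjusted p = 0.0506) or HCmel12 replicate 5 (0.87, adjusted p = 0.060). It was also lost with edgeR (0.70, adjusted p = 0.127) and DESeq2 (0.71, adjusted p = 0.132). Notch3 is located on chromosome 17 (32120820 to 32166852, minus strand).

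Notch4, a receptor described mainly in endothelium, was high in D4M and low in the other lines. Its libraries lay at 18.2, 11.0, 28.1, 31.99 and 28.6 CPM in D4M, with a mean of 23.6 ± 8.70 CPM. Means of the other lines were 0.555 ± 0.0839 (WT31), 0.445 ± 0.127 (B16F10 luc2), 0.282 ± 0.136 (HCmel12) and 0.256 ± 0.0785 CPM (RET), from 3 to 17 counts per library. The lowest D4M library stood far above the highest library of any other line (0.628 CPM). D4M exceeded WT31 by 5.28 ± 0.45 on the log2 scale (limma, adjusted p = 5.35e-11), and no pair among the 4 other lines passed this test. Of these pairs, WT31 against RET (1.09, adjusted p = 0.156) and WT31 against HCmel12 (1.04, adjusted p = 0.181) passed the test when D4M replicate 2 was left out (adjusted p = 0.0267 and 0.0357), and also with edgeR's quasi-likelihood test (adjusted p = 0.0144 and 0.0296) and DESeq2's Wald test (0.00614 and 0.0194). With log2 of TPM plus 0.1, B16F10 luc2 exceeded RET (1.09, adjusted p = 0.0412) and HCmel12 (1.11, adjusted p = 0.0259). Endothelial markers were near 0 in D4M, where the 7 markers summed to between 1.07 and 2.05 CPM and Cdh5, which defines endothelium, stood at 0.158 CPM. Notch4 maps to chromosome 17 (34564268 to 34588503, plus strand).

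The ratio of a gene's counts to its TPM gives the length of the transcripts to which its reads were assigned. For Notch4 this length averaged 6196 bases in the 4 D4M libraries with TPM, where the longest of the 12 annotated transcripts has 6591 bases. In libraries with at least 5 counts it averaged 2315 bases in WT31, 1983 in RET, 1792 in HCmel12 and 1267 in B16F10 luc2. In these lines the highest library reached 3946 bases, below the lowest D4M library at 4707 bases. The Notch4 counts of the other lines were thus assigned to shorter transcripts and were few in number. For Notch2 the line means of the same measure lay between 10910 and 10952 bases. Other members varied more between libraries: in HCmel12 from 6066 to 9868 bases for Notch1 and from 2312 to 4019 bases for Jag2.

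In TPM, which allows levels to be compared between genes, the receptors summed to 23.9 ± 2.94 in D4M (n = 4), 19.9 ± 3.62 in WT31, 10.7 ± 0.801 in RET, 8.76 ± 0.826 in HCmel12 and 7.01 ± 0.402 in B16F10 luc2. Notch1 made up 64.2% ± 5.68 of this sum in WT31, 51.9% ± 3.48 in RET, 43.3% ± 6.34 in D4M, 35.1% ± 2.53 in HCmel12 and 21.5% ± 1.78 in B16F10 luc2. Notch2 made up the larger part in B16F10 luc2 (66.1% ± 3.61) and HCmel12 (59.4% ± 4.38). The ranges of the Notch1 share did not overlap between WT31 (58.5% to 72.0%) and RET (47.9% to 55.2%), nor between HCmel12 (31.7% to 38.4%) and B16F10 luc2 (19.6% to 24.1%). Notch4 held 23.3% ± 9.46 of the sum in D4M and at most 14.9% in any library of another line. Its range in D4M (10.4% to 30.8%) overlapped with that in B16F10 luc2 (4.43% to 14.9%). The share in B16F10 luc2 rests on 7 to 15 counts per library. These were assigned to transcripts averaging 1267 bases, against 6196 in D4M, which raises their TPM relative to their counts. Notch3 held at most 7.52% in any library, that of HCmel12 replicate 4.

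**Figure D2:**
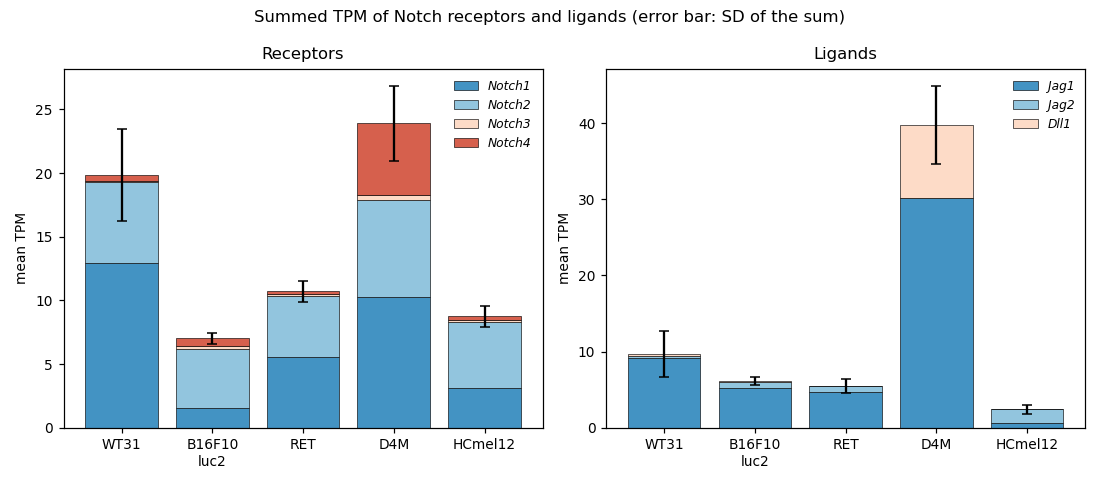
Summed TPM of receptors and of ligands by line. Bars are stacked means of single genes and error bars the SD of the sum over 5 libraries (4 in D4M). The receptor sum was highest in D4M and WT31, and the ligand sum in D4M was 39.8 against at most 9.65 in the other lines.

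The ligands separated the 2 lines of LM-melanoma. Jag1, the main Jagged ligand, was highest in D4M at 99.1 ± 8.58 CPM and lowest in HCmel12 at 1.90 ± 0.323 CPM. Libraries of D4M lay at 94.9, 93.2, 110.7, 105.7 and 91.1 CPM and those of HCmel12 at 1.89, 1.91, 2.23, 1.37 and 2.08 CPM. HIM-melanoma lay in between, with WT31 at 24.4 ± 6.89 CPM, B16F10 luc2 at 16.01 ± 1.82 CPM and RET at 13.7 ± 3.12 CPM. All libraries of D4M lay above, and all of HCmel12 below, the 20 others. D4M exceeded HCmel12 by 5.71 ± 0.27 on the log2 scale (limma, adjusted p = 2.12e-16) and WT31 by 2.06 ± 0.12 (adjusted p = 4.26e-14). B16F10 luc2 and RET did not differ (0.25 ± 0.17, adjusted p = 0.221). The gene lies on chromosome 2 (137081456 to 137116644, minus strand) and shares no 31-base stretch with another gene's transcripts.

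Jag2, the other Jagged ligand, ran opposite to Jag1 in LM-melanoma. HCmel12 libraries held 3.13, 2.95, 3.32, 8.12 and 4.27 CPM, with the highest value in replicate 4, and their mean was 4.36 ± 2.16 CPM. The mean was 1.44 ± 0.371 CPM in RET, 1.39 ± 0.498 CPM in B16F10 luc2, 0.479 ± 0.137 CPM in WT31 and 0.185 ± 0.166 CPM in D4M. All libraries of HCmel12 lay above the 20 others. HCmel12 exceeded RET by 1.51 ± 0.29 on the log2 scale (limma, adjusted p = 4.63e-05), and leaving out any library kept this value between 1.26 and 1.62. D4M was the lowest line, from 1 to 10 counts per library, with a mean of 0.120 CPM without replicate 3. WT31 exceeded it by 1.58 ± 0.55 (adjusted p = 0.0114), a call that was lost with log2 of TPM plus 1 (0.22, adjusted p = 0.123). RET and B16F10 luc2 did not differ (0.09 ± 0.34, adjusted p = 0.854). Jag2 maps to chromosome 12 (112907819 to 112929776, minus strand).

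Dll1, a Delta-like ligand, was at 22.3 ± 4.91 CPM in D4M, where the libraries held 529, 396, 497, 665 and 424 counts. No other library held more than 8 counts. B16F10 luc2 held 2 to 8 counts per library (0.171 ± 0.1001 CPM), WT31 2 to 7 (0.130 ± 0.0814 CPM) and RET 0 to 3, and in HCmel12 a single count was found in 1 of 5 libraries. D4M exceeded B16F10 luc2 by 6.99 ± 0.40 on the log2 scale (limma, adjusted p = 1.52e-14) and WT31 by 7.34 ± 0.42 (adjusted p = 1.49e-14). From summed counts, D4M was 477-fold above RET (95% counting interval 218.9 to 1301) and 2763-fold above HCmel12 (495.5 to 109200). Without RET replicate 2 the former became 754.3-fold (257.8 to 3660), and without HCmel12 replicate 3, which held the single count, D4M was at least 737.9-fold higher, taking 3 counts over the other 4 libraries as the limit. These intervals cover counting error only. Among the low lines, the difference between B16F10 luc2 and RET (1.79, adjusted p = 0.0228) was lost without B16F10 luc2 replicate 4 (1.54, adjusted p = 0.0629), RET replicate 3 (1.46, adjusted p = 0.0739) or RET replicate 4 (1.47, adjusted p = 0.0719).

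The Dll1 gene lies on chromosome 17 (15367354 to 15376872, minus strand). Of its 31-base stretches 17.9% also occur in transcripts of A930024N18Rik on the opposite strand. The level of A930024N18Rik could not be given, because its annotated identifier was not found among the genes counted. The share of the Dll1 counts that belongs to A930024N18Rik is therefore uncertain.

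Within the ligands the share of each gene in TPM followed the line. Jag1 made up 94.7% ± 2.25 of the sum in WT31, 85.5% ± 4.37 in B16F10 luc2, 83.7% ± 7.65 in RET and 75.9% ± 5.03 in D4M, but 25.4% ± 8.83 in HCmel12. Jag2 took 74.5% ± 9.11 of the sum in HCmel12 and at most 24.9% in any library of another line. Dll1 took 23.9% ± 5.19 in D4M and at most 5.90% elsewhere. The ligand sum was lowest in HCmel12 at 2.40 ± 0.546 TPM, and the line with the second-lowest sum was RET at 5.52 ± 0.907 TPM.

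Among the targets, Hes1, the repressor most often read as a Notch target, was present in all lines. Its mean was 33.0 ± 6.02 CPM in D4M, 20.9 ± 4.73 CPM in WT31, 8.98 ± 3.43 CPM in HCmel12, 7.27 ± 3.15 CPM in RET and 2.55 ± 0.431 CPM in B16F10 luc2. In D4M the libraries lay at 31.2, 39.1, 28.2, 39.5 and 26.8 CPM and in WT31 at 26.7, 24.01, 20.8, 18.2 and 14.7 CPM, so that the lowest library of D4M (26.75 CPM) and the highest of WT31 (26.68 CPM) nearly met. B16F10 luc2 libraries lay between 1.94 and 3.03 CPM, below all 20 others. D4M exceeded WT31 by 0.67 ± 0.17 on the log2 scale (limma, adjusted p = 0.000896), a call that was lost with TPM (adjusted p = 0.149 and 0.183 with pseudocounts of 1 and 0.1). WT31 exceeded HCmel12 by 1.26 ± 0.22 (adjusted p = 1.15e-05), and RET exceeded B16F10 luc2 by 1.43 ± 0.34 (adjusted p = 0.000964). HCmel12 and RET did not differ (0.32 ± 0.26, adjusted p = 0.283). Hes1 maps to chromosome 16 (30064384 to 30067796, plus strand) and shares no 31-base stretch with another gene's transcripts.

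**Figure D3:**
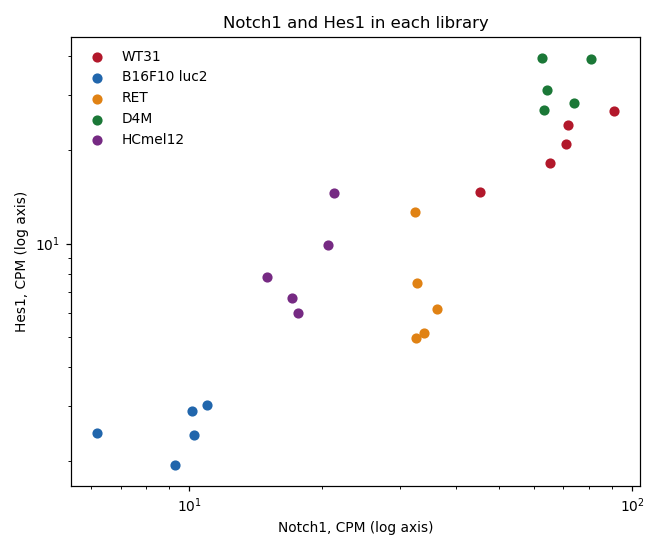
Notch1 against Hes1 in each of the 25 libraries, both in CPM on log axes and coloured by line. B16F10 luc2 libraries lie at the lower end of both genes, D4M and WT31 libraries at the upper end, and RET and HCmel12 libraries in between.

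Side by side, B16F10 luc2 was the lowest line and D4M and WT31 were the 2 highest lines in both Notch1 and Hes1, whereas RET exceeded HCmel12 in Notch1 and not in Hes1. Within WT31 the 5 libraries had the same order for both genes, which was not the case in the other lines. No correlation is given, since the libraries fall into lines of 5. WT31 replicate 5 was the lowest library of its line for 8 of the 10 members, namely Notch1, Notch2, Notch3, Jag1, Jag2, Dll1, Hes1 and Hey1, and the highest for Notch4. For Dll1, WT31 replicates 4 and 5 both held 2 counts, and only the scaled library size set them apart. No other library was the lowest of its line for more than 4 members. HCmel12 replicate 3 was the highest library of its line for 6 members (Notch1, Notch2, Jag1, Dll1, Hes1 and Hey1). Tyr stood at 4490 CPM in WT31 replicate 5, the highest value of the line, and the part of such a difference in these values was not tested.

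Hey1, a repressor of the same class, stood near the detection limit. D4M held 0.754 ± 0.382 CPM (8 to 31 counts per library), HCmel12 0.242 ± 0.119, WT31 0.214 ± 0.143 and RET 0.139 ± 0.0850 CPM, while in B16F10 luc2 2 counts were found in 1 of 5 libraries. D4M exceeded HCmel12 by 1.56 ± 0.52 on the log2 scale (limma, adjusted p = 0.0096), and RET exceeded B16F10 luc2 by 2.35 ± 0.76 (adjusted p = 0.0119). The latter call was lost with log2 of TPM plus 1, where B16F10 luc2 differed from RET by -0.17 (adjusted p = 0.0819). No pair among HCmel12, WT31 and RET passed the test. From summed counts, D4M was 46.7-fold above B16F10 luc2 (95% counting interval 12.5 to 391.8), and at least 24.6-fold higher without B16F10 luc2 replicate 5, with the same limit of 3 counts. Heyl was counted 17 times in the 5 WT31 libraries, 4 times in RET, 2 times in D4M and not at all in B16F10 luc2 and HCmel12, of which the WT31 counts lay mostly in replicate 1 (10 counts). Counts of 0 in a library allow up to 0.138 CPM, and Heyl was not tested. Hey1 lies on chromosome 3 (8663359 to 8667256, minus strand) and Heyl on chromosome 4 (123233556 to 123249875, plus strand).

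The tests of the 9 members were then counted in all 10 pairs of lines. Of the 90 tests 67 passed (74.4%), against 70.8% of 152470 tests over all genes, so that the members were called about as often as any gene. In D4M against RET all 9 members were called, 8 of them higher in D4M, where 77.1% of all genes were called and 38.3% were higher in D4M. In D4M against HCmel12 all 9 were called as well, 8 higher in D4M (72.5% of all genes called, 36.8% higher). In D4M against WT31 8 were called, 7 of them higher in D4M (76.1% and 38.6%), and in D4M against B16F10 luc2 also 8, 7 of them higher (77.7% and 38.9%). Jag2 was the exception in each of these pairs and was lower in D4M, and these pairs share the D4M libraries. Dll1 was among the higher members in each of them. It passed the low-count filter through D4M only, so that its direction was fixed by the filter. Hey1, also among the higher members in each, held 8 to 31 counts in D4M libraries and at most 10 in any other. It passed the filter largely through D4M, so that its direction was largely set by the filter as well.

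Among the other 6 pairs, 7 members were called in WT31 against B16F10 luc2, 5 of them higher in WT31 (72.8% of all genes called, 36.4% higher). In WT31 against HCmel12 6 were called, 4 higher in WT31 (70.4% and 36.1%), and in B16F10 luc2 against HCmel12 7, 2 higher in B16F10 luc2 (69.1% and 35.3%). In WT31 against RET 5 were called, 4 higher in WT31 (73.2% and 36.8%), and in B16F10 luc2 against RET 5, 2 higher in B16F10 luc2 (51.5% and 25.2%). The smallest number was found between RET and HCmel12, where 3 members were called (67.2%). Notch1 and Jag1 were higher in RET (34% of all genes) and Jag2 was higher in HCmel12 (33.3%). The median log2 difference of the 9 members was -2.06 for WT31, -2.90 for B16F10 luc2 and -2.25 for RET against D4M, and 1.92 for D4M against HCmel12. In the pairs without D4M it was 0.34, 0.81 and 1.04 in WT31 against B16F10 luc2, RET and HCmel12, -0.052 and -0.19 in B16F10 luc2 against RET and HCmel12, and -0.14 in RET against HCmel12. The median over all genes lay between -0.0095 and 0.0054 in the 10 pairs.

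**Figure D4:**
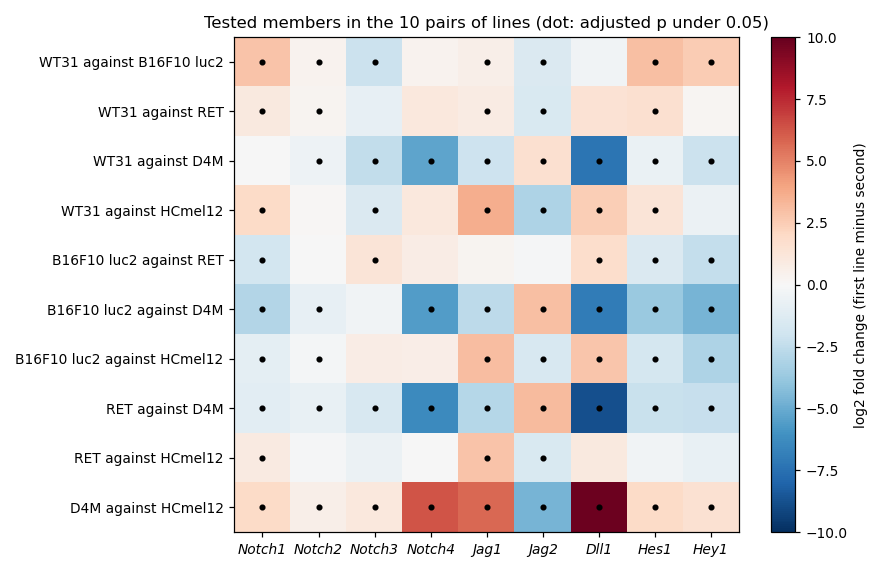
Log2 fold change of the 9 tested members in the 10 pairs of lines. Colour gives the difference of the line named before from the line named after, and dots mark an adjusted p under 0.05. The 4 pairs with D4M hold the strongest colours, and RET against HCmel12 holds 3 dots.

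None of the 9 members had all libraries of HIM-melanoma on the same side of all libraries of LM-melanoma. Since 8.02% of all tested genes did, a count of 0 among 9 is near the background. The smallest one-sided p that 3 lines against 2 allow is 0.1. Single lines were then set against the 4 others. In D4M 5 of 9 members (Notch2, Notch4, Jag1, Dll1, Hes1) lay above all 20 libraries of the other lines, as did 16.8% of all genes. Of these members, Dll1 held at most 8 counts in any library outside D4M and passed the low-count filter through D4M only. Its place among the 5 was thus fixed by the filter. Hes1 stood apart with TMM or DESeq2 scaling only. Scaling by library size left 4 members (13.3% of all genes), and in TPM, where the lowest D4M library (30.1) lay below the highest of WT31 (35.9), Hey1 took the place of Hes1. Hey1 held at most 10 counts in any library outside D4M and passed the low-count filter largely through D4M. In B16F10 luc2 2 members (Notch1, Hes1) lay below all others (4.79% of all genes). In HCmel12 Jag2 lay above (6.9%) and Jag1 below all others (4.26%). WT31 and RET had no such member, where 17.3% and 8.53% of all genes stood apart in either direction.

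**Figure D5:**
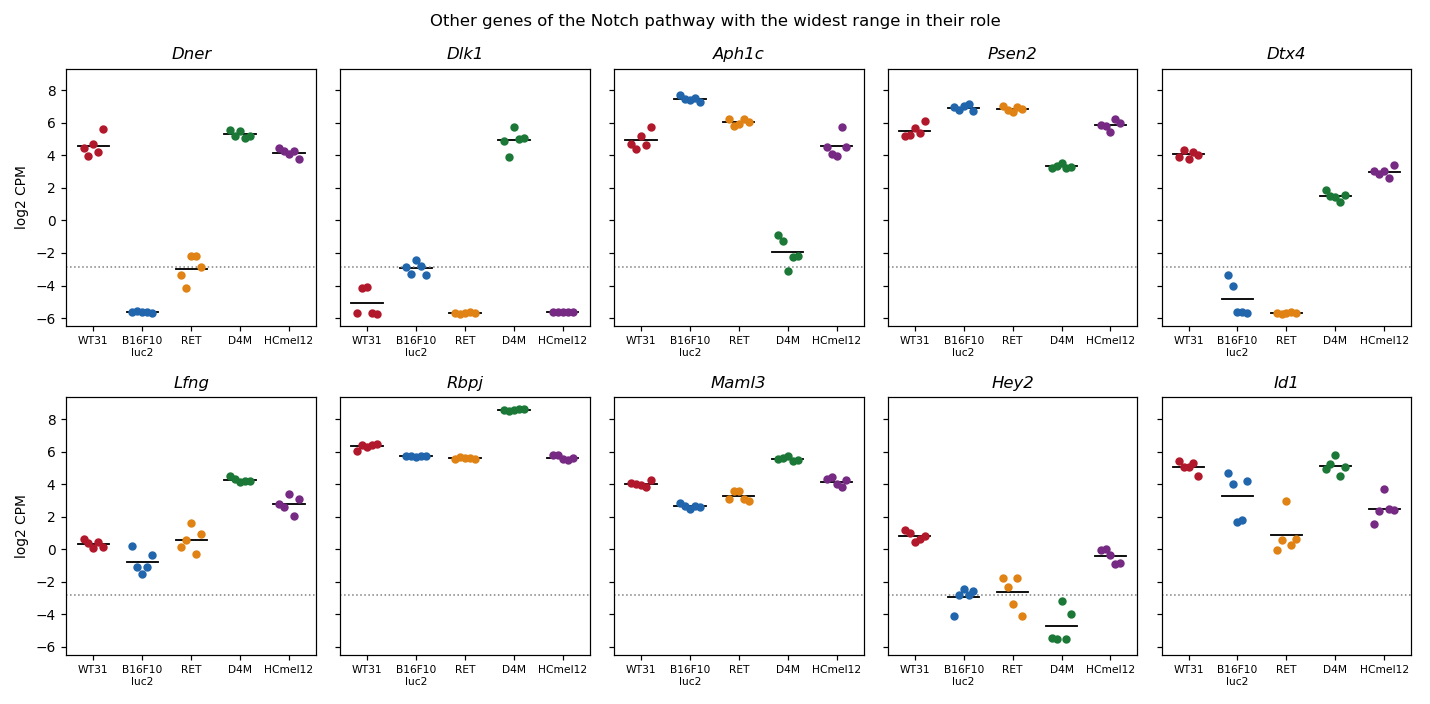
Other Notch pathway genes, the 2 of each role with the widest range of line means plus Rbpj and Lfng where not already included. Points are log2 CPM of single libraries, bars are line means and the dotted line is the level of 3 counts. Rbpj, Maml3, Lfng and Dlk1 were highest in D4M, and Psen2 and Aph1c lowest.

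Of 48 further genes of the pathway 43 were tested, and 312 of 430 tests passed (72.6%, near the share over all genes). In the transcription complex, Rbpj, the DNA-binding partner of the receptors, stood at 382.1 ± 14.2 CPM in D4M against 81.0 ± 9.36 in WT31, 53.3 ± 0.831 in B16F10 luc2, 50.1 ± 4.79 in HCmel12 and 48.5 ± 1.67 in RET. D4M exceeded WT31 by 2.24 ± 0.06 on the log2 scale (limma, adjusted p = 8.23e-21). Its transcripts share 11.8% of their 31-base stretches with other genes, among them processed copies of Rbpj. Maml3, a Mastermind coactivator, reached 47.6 ± 3.84 CPM in D4M and 6.33 ± 0.586 CPM in B16F10 luc2, with 18.2, 16.4 and 9.76 CPM in HCmel12, WT31 and RET. Of the 8 genes of this complex 8 were called in D4M against B16F10 luc2, 6 of them higher in D4M (77.7% of all genes called, 38.9% higher in D4M), and 6 against HCmel12, all higher in D4M (72.5% and 36.8%). Against RET 7 were called, 4 higher in D4M (77.1% and 38.3%), and against WT31 5, 4 higher in D4M (76.1% and 38.6%).

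Among the enzymes that modify Notch, Lfng, a fringe glycosyltransferase that changes which ligands a receptor prefers, had levels ordered along the study's grouping. It was not the only such gene of the pathway. It stood at 19.5 ± 1.98 CPM in D4M and 7.27 ± 2.40 CPM in HCmel12, and at 1.66 ± 0.870, 1.26 ± 0.189 and 0.632 ± 0.332 CPM in RET, WT31 and B16F10 luc2. The lowest library of LM-melanoma (4.16 CPM) lay above the highest of HIM-melanoma (3.03 CPM), and HCmel12 exceeded RET by 2.20 ± 0.28 on the log2 scale (adjusted p = 1.41e-07). Dlk2 and Ncstn were also lower and Aph1b was higher in all libraries of HIM-melanoma, 4 of 43 genes in all with Lfng, near the 8.02% of all genes. Dtx4, a Deltex ubiquitin ligase, was at 16.8 ± 2.54 CPM in WT31, followed by HCmel12 (8.11 ± 1.64 CPM) and D4M (2.84 ± 0.504 CPM). No library of B16F10 luc2 or RET held more than 2 counts of it. The 15 tested genes of this role had 7 to 12 calls per pair, where 51.5% to 77.7% of all genes were called.

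Of the γ-secretase genes, Aph1c was at 179.7 ± 21.1 CPM in B16F10 luc2, 67.2 ± 8.46 CPM in RET, 32.5 ± 13.1 CPM in WT31, 26.3 ± 15.2 CPM in HCmel12 and 0.278 ± 0.171 CPM in D4M. WT31 replicate 5 (53.8 CPM) and HCmel12 replicate 4 (52.8 CPM) raised these means. The other libraries of the 2 lines reached at most 36.2 and 23.1 CPM. Reads are shared between Aph1c and Aph1b (25.3% of its 31-base stretches occur in other genes), so that the division between them is uncertain. Psen2, a catalytic subunit, was lowest in D4M at 10.0 ± 0.797 CPM, against 47.1 ± 13.6 CPM in WT31, the lowest of the other lines (-2.19 ± 0.20 on the log2 scale, adjusted p = 1.73e-10). Psen2, Aph1a, Aph1c and the glycosyltransferase Rfng were the 4 pathway genes with all D4M libraries below all others (11.5% of all genes), while 15 lay above (16.8%), among them Adam10, Adam17 and Furin, which cleave the receptors. Of these 15, Dlk1 and Dll4 held at most 5 counts in any library outside D4M and passed the low-count filter through D4M only.

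Of the ligands outside the members, Dner, an atypical ligand, was at 40.2 ± 5.94 CPM in D4M, 26.5 ± 13.9 CPM in WT31 and 18.2 ± 2.86 CPM in HCmel12, at 1 to 5 counts per library in RET and at 0 in all libraries of B16F10 luc2. Dlk1, a ligand without the domain that activates Notch, was at 32.8 ± 14.2 CPM in D4M and at most 4 counts per library in the other lines. Of the other targets, Hey2 was highest in WT31 at 1.78 ± 0.367 CPM and lowest in D4M at 0 to 2 counts per library, the reverse of Hey1 in D4M. Id1, which is also a target of BMP signaling, was at 36.1 ± 12.36 CPM in D4M and 34.6 ± 8.19 CPM in WT31 and did not differ between these (0.04 ± 0.32, adjusted p = 0.92). It was lower in B16F10 luc2 (13.6 ± 10.1 CPM), HCmel12 (6.42 ± 3.96 CPM) and RET (2.59 ± 2.92 CPM, and 1.29 ± 0.280 CPM without replicate 3, which stood at 7.80 CPM). Nrarp, a feedback inhibitor, held at most 5 counts in any library and was not tested, nor were Mfng, Dtx1, Hes5 and Hes7. Of the 31-base stretches of Nrarp 78.2% also occur in Gm38287, which itself held at most 5 counts in any library, so that the division between them is uncertain.

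The 3 genes whose log2 CPM was most like that of Notch4 over the 25 libraries were Rnf11 (Pearson r = 0.981), Slc25a37 (0.980) and Rbpj (0.973). For Dll1 they were Anxa2 (0.967), Notch4 (0.965) and Ercc1 (0.963), and for Hey1 Erf (0.904), Nt5dc2 (0.862) and Nr3c1 (0.858). These values describe 25 points that share 5 lines, and the first 2 lists follow the step between D4M and the other lines.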

How the data were processed

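RNA of 25 cultures was sequenced. The labels name BGISeq-500 protocols for library preparation, whereas the study's methods name an Illumina sequencer. According to the labels and methods, the authors trimmed reads with Trim Galore (0.6.4), assigned them to GRCm38.p6 with kallisto and deposited estimated counts per gene, without normalization, for 25 libraries. TPM values deposited by the authors correct for transcript length and sum to 1000000 per library. TPM of D4M replicate 1 was not used here. The annotation release and the step from transcripts to genes are not given in the sources used here. Kallisto divides a read among the transcripts that it matches.

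Counts were filtered with filterByExpr by line (edgeR 4.0.16), leaving 15247 of 55385 genes. They were normalized by TMM and fitted with voom and limma (3.58.1, R 4.3.3) with a mean per line over all 25 libraries. CPM are counts relative to the TMM-scaled sum over tested genes, in units of 1000000. All 10 pairs of lines were tested, with Benjamini-Hochberg adjustment over all tested genes within a pair and a threshold of 0.05. The replicates are biological replicates per the labels. The procedure was tested on simulated data for WT31 against RET (15247 genes), where it recovered 91 of 100 genes changed 2-fold and 100 of 100 changed 4-fold, and 5.45% of its calls were false. Only genes with a mean above 1 CPM were changed, and only in WT31. Far fewer genes were changed than were called in the data, so these shares need not hold for the data or for members at lower levels. As alternatives, library size only, DESeq2 size factors, edgeR's quasi-likelihood test and DESeq2's Wald test (1.42.0) on rounded counts, no filter, at least 10 counts in every library, only the 2 lines of a pair, a replicate block, log2 of TPM with a pseudocount of 1 or 0.1, and leaving out each library were tried. Leaving out D4M replicate 1 and HCmel12 replicate 4 together, setting each line against the 4 others under each scaling, and line means without each library, were added after seeing the data.

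The members and lists were chosen with earlier results of these data known. Named are all 10 members and, of each of 5 roles in the pathway list, the 2 tested genes with the widest range of line means, plus Rbpj, Lfng and Nrarp. Genes named for libraries that do not overlap, and those not tested, were chosen after their values were seen. Likeness is given for the member of each role with the widest range of line means. Transcript lengths were calibrated on 177 genes with a single transcript. Replicate numbers did not pair the libraries. The genotypes of D4M and B16F10 luc2 are not reported here.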

Additional observations from a re-analysis of the deposited data

Results flagged for a closer look

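Of 50 groups of 5 libraries (10 members in 5 lines), 2 held no count in any library. Of the other 48, 6 had a library whose gap to its neighbour took over 0.71 of the range of the group on the log2 scale, where chance gives about 1 in 20 groups. Notch1 in B16F10 luc2 replicate 1 stood at 6.19 CPM, against 9.30 to 11.0 CPM in the other libraries of the line. Notch2 in WT31 replicate 5 stood at 38.1 CPM, against 42.9 to 44.9 CPM. Notch3 in HCmel12 replicate 4 stood at 3.31 CPM, against 0.529 to 0.678 CPM. Hey1 in WT31 replicate 5 stood at 0.0 CPM, against 0.154 to 0.342 CPM. The last 2 groups rest on 1 or 2 counts. Dll1 in HCmel12 replicate 3 stood at 0.0405 CPM (1 count) and Hey1 in B16F10 luc2 replicate 5 at 0.0769 CPM (2 counts), where the other libraries of the line held none. In HCmel12 replicate 4 Jag2 (8.12 CPM) and Tyr (30.1 CPM) were also the highest of the line.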

How the results depend on the processing

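Counts of called members stayed within 1.5 times the reported count in all 10 pairs of lines with both other scalings, edgeR, DESeq2, no filter, only the lines of a pair, the replicate block, TPM plus 0.1, and without D4M replicate 1 and HCmel12 replicate 4 together. With at least 10 counts in every library, 4 members were tested (Hes1, Jag1, Notch1, Notch2). The called members then fell to 4 in WT31 against B16F10 luc2, B16F10 luc2 against D4M, B16F10 luc2 against HCmel12, RET against D4M and D4M against HCmel12, to 3 in WT31 against D4M and WT31 against HCmel12, and to 2 in B16F10 luc2 against RET, since fewer members were tested. With log2 of TPM plus 1, B16F10 luc2 against RET also had 2, and the cause was not tested. Of the called differences, TPM plus 1 also lost Notch2 in B16F10 luc2 against HCmel12 (adjusted p = 0.155, and 0.0691 without a filter), Notch3 in WT31 against HCmel12 (0.138), B16F10 luc2 against RET (0.0643) and D4M against HCmel12 (0.0975), and Dll1 in B16F10 luc2 against RET (0.24).

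All sign changes were in differences that had not passed the test. Notch1 in WT31 against D4M became 0.19 with library size only, 0.27 with TPM plus 1 and 0.29 with TPM plus 0.1. Notch4 in WT31 against B16F10 luc2 became -0.11 and -0.27 with TPM plus 1 and plus 0.1, and in RET against HCmel12 0.0247 with TPM plus 0.1. Dll1 in WT31 against B16F10 luc2 became 0.0016 with TPM plus 0.1, and Hey1 in WT31 against HCmel12 0.0064 with TPM plus 1. Leaving out single libraries gave ranges of -0.14 to 0.11 for Notch1 in WT31 against D4M, -0.30 to 0.16 for Notch4 in RET against HCmel12, -0.23 to 0.0508 for Jag2 in B16F10 luc2 against RET, -0.14 to 0.95 for Hey1 in WT31 against RET and -0.90 to 0.19 for Hey1 in WT31 against HCmel12. The cause was not tested. With single libraries left out, counts of called members ranged from 5 to 7 in WT31 against RET and WT31 against HCmel12. They ranged from 6 to 8 in B16F10 luc2 against HCmel12, and moved by at most 1 in the other pairs.

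Scaling by library size only moved the median of all genes by up to 0.225 (log2), with D4M shifted down. The share of calls that were higher in the line named before then moved from 49.3% to 62.4% in WT31 against D4M and from 50.8% to 39.6% in D4M against HCmel12. Same-numbered libraries did not deviate together (50 pairs, r from -0.091 to 0.104), so the numbers do not pair the libraries, and 6 of 25 libraries correlated best with their own number. With the replicate block 4 of 90 differences passed the test in addition: Notch4 in WT31 against RET (1.11), WT31 against HCmel12 (1.01) and B16F10 luc2 against RET (0.77), and Dll1 in WT31 against RET (1.49). These were not particular to the block: the 3 Notch4 differences also passed with only the lines of a pair, and Dll1 (adjusted p = 0.0515 as reported) with library size only (0.046), only the lines of a pair (0.0404), TPM plus 0.1 (0.00801) and when any of 8 libraries was left out (0.0257 to 0.0481). Depth limits Hey1 and Heyl, and Dll1 outside D4M, where libraries held at most 10 counts.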
